A study of Mus musculus with 18 samples.

Results

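The IgA system of the mouse ileum was followed through 8 genes: the antibody genes Igha, Iglv1, Igkv8-30 and Igkv9-120, the joining chain Jchain, the B lineage genes Mzb1 and Cd79b, and Pigr, the receptor of the epithelium. They were chosen by name, with earlier results of these data known. Each was read from its brightest probe set, by the mean of all 18 arrays, out of those annotated with that symbol alone. They are 8 of 18193 genes with such a probe set. A probe set is a group of short probes for 1 transcript. The samples were full-thickness pieces of ileum, the last stretch of the small intestine, from C57BL/6 mice, an inbred laboratory strain. There were 6 groups, at postnatal days 4, 7, 9, 11, 24 and 32, with 3 individual mice each, 1 array per mouse and no treatment named. Days 4 to 11 (12 arrays) are called suckling below and days 24 and 32 (6 arrays) after weaning, with weaning placed between days 11 and 24 from general knowledge of mice. The labels give no litter or sex, and p-values measure the spread between these 18 mice.

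In the gut wall, plasma cells secrete IgA as a dimer. Each monomer carries alpha heavy chains, encoded by Igha, and kappa or lambda light chains, whose variable parts come from segments such as Igkv8-30, Igkv9-120 and Iglv1. The joining chain encoded by Jchain links the monomers and is the part that the polymeric immunoglobulin receptor, encoded by Pigr, recognises. Pigr is made by epithelial cells, picks up the dimer on their basolateral side, carries it through the cell and is cleaved at the lumen, releasing secretory IgA. Mzb1 is an endoplasmic reticulum protein that helps antibody assembly in B cells and plasma cells. Cd79b is a signalling subunit of the B cell receptor on the surface of B cells, which plasma cells largely lose. Suckling mice receive antibody from milk, and their own intestinal plasma cells appear around weaning.

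On the mouse assembly GRCm38.p6 Pigr lies at chr1:130826684-130852249, Jchain at chr5:88519809-88527897 and Cd79b at chr11:106311341-106314562. Igha, annotated as a constant region, lies at chr12:113256204-113260236. The light chain members are annotated as variable segments, with Igkv8-30 at chr6:70117061-70117617, Igkv9-120 at chr6:68049983-68050454 and Iglv1 at chr16:19085017-19085460. The RefSeq promoter table held windows for 2 of the 8 genes, Pigr and Jchain, which are the receptor and the chain it recognises. Their 250 bases before the start of the gene are shown 5′ to 3′ on the coding strand, from chr1:130826434-130826683 (plus strand) and chr5:88527898-88528147 (minus strand), to set the epithelial and the plasma cell promoter side by side.
Pigr: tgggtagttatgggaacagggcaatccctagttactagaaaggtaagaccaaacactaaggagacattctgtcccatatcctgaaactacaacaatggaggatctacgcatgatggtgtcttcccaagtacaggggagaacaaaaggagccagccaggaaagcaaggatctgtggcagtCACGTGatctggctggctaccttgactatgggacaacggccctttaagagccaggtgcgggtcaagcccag
Jchain: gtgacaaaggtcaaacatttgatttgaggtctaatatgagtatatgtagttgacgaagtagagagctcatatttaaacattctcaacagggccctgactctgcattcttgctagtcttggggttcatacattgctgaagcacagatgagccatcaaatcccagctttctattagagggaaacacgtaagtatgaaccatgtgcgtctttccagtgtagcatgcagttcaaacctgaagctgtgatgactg
The capitals mark the E-box CACGTG, the motif of the USF transcription factors, which starts 71 bases before the Pigr start. It was found by a search of both strands for the letters CACGTG, for the octamer ATGCAAAT of immunoglobulin promoters and for GAAANNGAA, the core of interferon-stimulated elements. The E-box in Pigr was the only match of these 3 motifs in the 300-base windows of both genes. Of 32851 windows of that length, 7.15% held CACGTG, 1.74% ATGCAAAT and 8.56% GAAANNGAA. Such a match describes letters only, and arrays do not show what binds there.

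Levels are log2 values made with RMA, so 1 unit is a factor of 2, and they were not compared between genes. Array medians lay at 3.88 to 3.97 and the table holds no detection calls, so a level near or below them could not be told from background and any fold against it depends on the background correction. Epithelial markers, 11 genes such as Epcam, Vil1 and Krt20, were present on every array, with a summed level of 14.28 to 14.48 in suckling and 14.95 to 15.27 after weaning. The age groups also differed in control probe sets. Poly-A controls read 3.53 to 4.51 in suckling and 4.98 to 6.37 after weaning, 18S controls 4.93 to 8.19 and 7.01 to 10.85, and hybridization controls split the arrays into a higher group of 10 (4 suckling and all 6 after weaning) and a lower group of 8 suckling arrays. The part of these controls in the results was not tested beyond the fits given below within these groups.

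Day 32 replicate 1 stood apart from the other arrays in genes of B cells and lymphoid follicles. All 17 B cell genes with a probe set, counting neither Cd79b nor Mzb1, had their highest value of the 18 arrays there, as did 8 of 12 germinal centre and follicle genes and 8 of 10 T cell genes and 9 of 19 genes of the plasma cell list, but 0 of 11 epithelial genes. Over all genes tested the share highest on that array was 5.49%. Ms4a1, the surface protein CD20 of B cells, read 8.37 there and 3.08 and 3.26 on the other day 32 arrays. Cxcl13, the chemokine of B cell follicles, read 9.55 against 3.91 and 4.34, and Cr2, a complement receptor of B cells and follicular dendritic cells, 5.92 against 3.03 and 2.68. The summed level of the B cell list was 12.67 there, 10.65 and 10.99 on the other day 32 arrays, 10.28 to 10.70 on day 24 and 9.84 to 10.24 in suckling. Results that rest on this array are given with and without it.

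Pigr was already expressed before weaning and reached a high level by day 24. Its mean moved down and up between the suckling ages, and only its rise from day 7 to day 9 passed the main test. On day 4 its log2 level was 8.96, 9.56 and 9.20 in the 3 mice, on day 7 8.71, 8.35 and 8.34, on day 9 9.54, 9.87 and 9.45, and on day 11 8.87, 8.70 and 8.86. It then read 11.82, 12.00 and 11.94 on day 24 and 12.51, 12.52 and 12.32 on day 32. All 6 arrays after weaning lay above all 12 suckling arrays, and all day 32 arrays above all day 24 arrays. In order of their means the ages ran from day 7 (8.46) through day 11 (8.81), day 4 (9.24), day 9 (9.62) and day 24 (11.92) to day 32 (12.45). Days 7 and 11 overlapped, as did days 4 and 9, while days 11 and 4 did not overlap but did not pass the test (log2 difference of day 11 minus day 4 -0.43 ± 0.15, SE, adjusted p = 0.13).

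**Figure D1:**
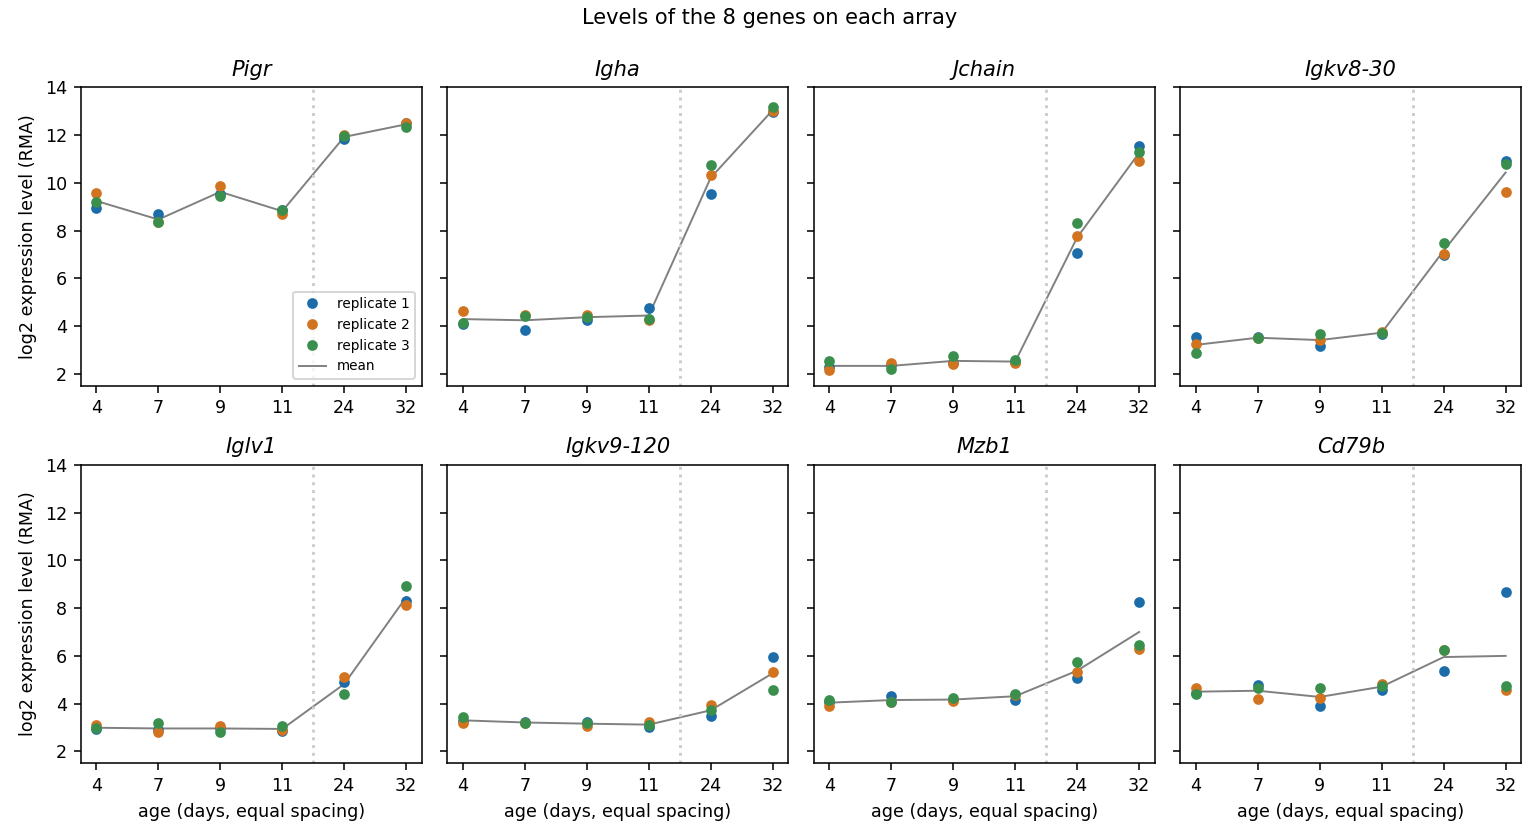
Log2 expression level of the 8 genes on each of the 18 arrays against age in days (ages equally spaced), with 3 mice per age as points, their mean as a line and weaning as a dotted line. Pigr starts at 8.34 to 9.87 in suckling, whereas the 7 other genes stay below 5 until day 11 and lie higher on every day 24 array.

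In the main fit the step from day 7 to day 9 was the one suckling interval in which Pigr passed the test. Pigr rose by 1.15 ± 0.15 (SE, n = 3 against 3), or 2.23-fold (limma, adjusted p = 0.000912). Only 0.0463% of the 8630 genes tested were called in that step. These were 4 genes, Pigr and 3 genes of Paneth cells, the antimicrobial cells of the crypt base: the lectin Itln1 (2.19), the alpha-defensin Defa39 (2.27) and the lysozyme Lyz1 (0.98). All 3 day 9 arrays lay above all 3 day 7 arrays in Pigr. The second Pigr probe set read 7.65, 6.93 and 6.96 on day 7 and 8.11, 8.79 and 8.51 on day 9, a difference of 1.29 ± 0.19 (adjusted p = 0.00491). Sample titles give day 7 replicate 3 and day 9 replicate 2 the same number, and the labels do not say what the number marks. Leaving out any single array gave a rise of 1.03 to 1.28 (highest adjusted p, 0.0132). Within the lower hybridization group alone, which left fewer arrays, the rise was 1.09 (adjusted p = 0.0809). The lower readings of days 7 and 11 did not pass against the age before them, with -0.78 ± 0.15 from day 4 to day 7 (adjusted p = 0.0592) and -0.81 ± 0.15 from day 9 to day 11 (0.0692). These steps held calls for 0.0811% and 0.0463% of all genes. Both falls were called in limma with array weights (-0.72, adjusted p = 0.0116, and -0.97, 0.00112). The same held with a trend and robust variance model (0.0323 and 0.0324). Leaving out single arrays gave adjusted p of up to 0.452 and 0.365. Of the other 7 genes, limma called 0 in any suckling step, and 0 had an unadjusted p under 0.05 there.

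Across weaning, from day 11 to day 24, Pigr rose 8.62-fold (log2 difference 3.11 ± 0.15, SE, n = 3 against 3, adjusted p = 5.91e-12). From day 24 to day 32 it rose by a further 0.53 ± 0.15, or 1.44-fold (adjusted p = 0.0269). In that later interval the call was lost with array weights (0.52, adjusted p = 0.0668), within the higher hybridization group (0.53, 0.0998) and without any of 4 single arrays: day 24 replicate 1 (0.48, 0.0749), day 24 replicate 3 (0.54, 0.0646), day 32 replicate 1 (0.50, 0.0823) or day 32 replicate 2 (0.49, 0.0965). The second Pigr probe set gave 3.69 ± 0.19 across weaning and 0.76 ± 0.19 after it (adjusted p = 0.0132). Epithelial markers moved with Pigr across weaning, where 8 of 11 rose and 2 fell, with a median of 0.60, against -0.04 over all genes tested. Of all genes 26.9% rose and 32.3% fell in this interval. Krt20, the keratin of mature villus cells, rose 18.5-fold, Krt19 3.11-fold and the microvillus protein Vil1 1.81-fold, while Epcam, an adhesion molecule of all epithelial cells, fell by 0.51. Their part in the rise of Pigr was not tested. In a bulk sample, fewer cells of a type and less RNA per cell cannot be told apart, and this holds for every gene below.

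Igha, the constant part of the IgA heavy chain, was at or near background in suckling and high after weaning. The 12 suckling arrays read 3.83 at the lowest, 4.34 at the median and 4.75 at the highest. Day 24 gave 9.55, 10.33 and 10.76, and day 32 12.95, 13.00 and 13.18. The 3 stages did not overlap, and the day 24 mice spread more (10.21 ± 0.61, SD, n = 3) than the day 32 mice (13.04 ± 0.12). The 4 suckling ages could not be ordered, with means between 4.24 and 4.44. Igha rose 54.7-fold from day 11 to day 24 (log2 5.77 ± 0.24, SE, adjusted p = 8.49e-13) and 7.10-fold from day 24 to day 32 (2.83 ± 0.24, adjusted p = 5.05e-07). Both other Igha probe sets also rose in both intervals, by 6.11 and 4.49 across weaning and by 2.68 and 3.72 after it. The split between the intervals thus varied with the probe set.

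Jchain, the chain that joins IgA into dimers, also rose over both late intervals. In suckling it read 2.17 to 2.75 with a median of 2.44, below the array medians throughout. Day 24 gave 7.06, 7.77 and 8.30, and day 32 11.55, 10.91 and 11.29. The day 24 mice ranked alike in both genes, replicate 1 lowest and replicate 3 highest, and no stage overlapped with another. Jchain rose by 5.20 ± 0.22 across weaning (adjusted p = 1.28e-12) and by 3.54 ± 0.22 from day 24 to day 32, or 11.6-fold (adjusted p = 1.14e-08).

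The light chain segments Igkv8-30 and Iglv1 rose over both intervals in the probe sets used here, from day 11 readings below the array medians. Igkv8-30 read 2.86 to 3.75 in suckling (median 3.52), then 6.98, 7.01 and 7.47 on day 24 and 10.92, 9.60 and 10.78 on day 32. Its log2 differences were 3.44 ± 0.25 across weaning (adjusted p = 2.54e-09) and 3.28 ± 0.25 after it (1.32e-07), both beyond the spread between mice. The lambda segment Iglv1 read 2.83 to 3.17 in suckling (median 2.94), 4.92, 5.13 and 4.42 on day 24, and 8.29, 8.13 and 8.94 on day 32. It rose 3.70-fold across weaning (1.89 ± 0.19, adjusted p = 1.23e-07) and 12.4-fold from day 24 to day 32 (3.63 ± 0.19, adjusted p = 1.10e-09). In both of these probe sets all 3 stages were apart from each other. A second Iglv1 probe set rose less, by 1.08 ± 0.19 across weaning and 2.48 ± 0.19 after it. The third did not pass in either interval (-0.02 ± 0.41, adjusted p = 0.973, and 0.96 ± 0.41, 0.14). On day 32 it read 4.96, 2.42 and 2.48. Variable segments resemble one another, and their probe sets can read transcripts of related segments.

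Igkv9-120 gave different readings from its 3 probe sets. The one used here, with the highest mean, read 3.04 to 3.43 in suckling (median 3.20), 3.50, 3.93 and 3.73 on day 24 and 5.95, 5.32 and 4.55 on day 32, so that no array reached log2 6, the level required of other genes on 3 arrays. It rose by 1.55 ± 0.22 from day 24 to day 32 (adjusted p = 0.000187). Its step across weaning, 0.60 ± 0.22 (adjusted p = 0.0277), lost its call with quantile normalization (0.30, 0.252), with cyclic loess (0.14, 0.615) and without any of 4 single arrays, the weakest being without day 24 replicate 2 (0.50, 0.105). Another probe set rose by 2.21 ± 0.27 across weaning and by 2.98 ± 0.27 after it, reaching 8.39, 6.97 and 7.09 on day 32. The third stayed between 1.95 and 2.73 on all arrays (log2 difference between the stages 0.10, adjusted p = 0.214).

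Mzb1, the assembly helper of antibody-making cells, rose over both intervals. Suckling arrays read 3.91 to 4.42 with a median of 4.14, day 24 5.07, 5.34 and 5.73, and day 32 8.27, 6.29 and 6.44. Stages did not overlap, and the top value was that of day 32 replicate 1. The gene rose by 1.07 ± 0.33 across weaning (adjusted p = 0.0105; 0.89 and 0.0527 without day 24 replicate 3) and by 1.62 ± 0.33 from day 24 to day 32 (adjusted p = 0.00415). Without day 32 replicate 1 the later step was 0.98 ± 0.16 (adjusted p = 0.000858). Both steps lost their call within the higher hybridization group, at unchanged or larger size (1.24, adjusted p = 0.118, and 1.62, 0.0575), and the later one with only days 24 and 32 fitted (1.62, 0.0615).

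Cd79b, the B cell receptor subunit, was high on 1 of the 3 day 32 arrays. In suckling it read 3.92 to 4.83 with a median of 4.60. Day 24 gave 5.38, 6.24 and 6.23, above all suckling arrays, and day 32 gave 8.69, 4.57 and 4.75, of which only replicate 1 lay above the suckling range. With all arrays Cd79b did not pass across weaning (1.25 ± 0.67, adjusted p = 0.122), from day 24 to day 32 (0.05 ± 0.67, 0.968) or in the test over all 6 ages (0.0835). Without day 32 replicate 1 it rose across weaning (1.25 ± 0.22, adjusted p = 0.00011) and fell by 1.29 ± 0.24 from day 24 to day 32 (adjusted p = 0.00334). A fit on days 11 and 24 alone also called the rise (adjusted p = 0.000772). Cd79a, the partner subunit, had the same order of arrays, with 5.06, 6.00 and 5.62 on day 24 and 8.03, 4.30 and 4.48 on day 32. Jchain (11.55), Igkv8-30 (10.92), Igkv9-120 (5.95) and Mzb1 (8.27) were also highest of all arrays on day 32 replicate 1, whereas Igha, Iglv1 and Pigr were not.

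**Figure D2:**
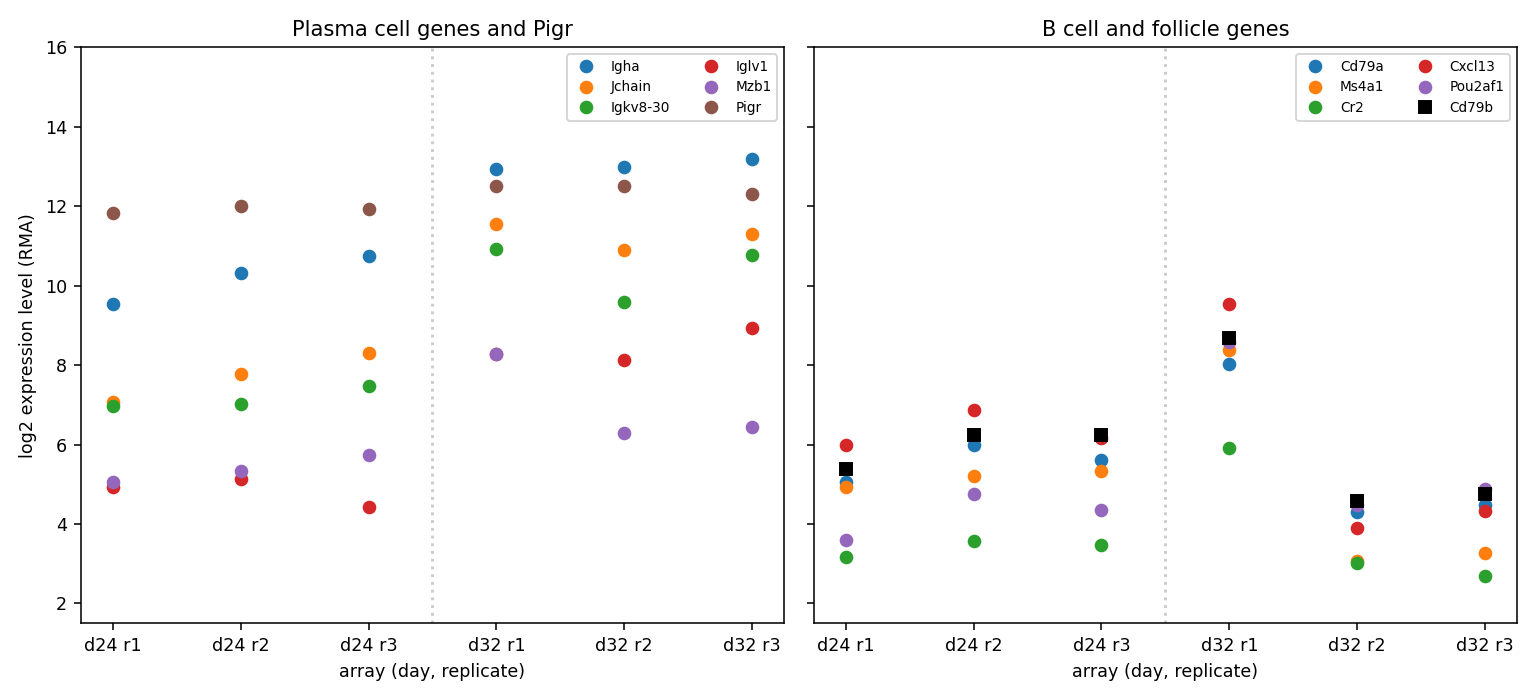
Log2 expression level of 6 of the genes (left) and of Cd79b with 5 others (right) on the 6 arrays after weaning. These 5 are Cd79a, Ms4a1, Cr2 and Cxcl13, of B cells and follicles, and Pou2af1, of the plasma cell list. Arrays are named by day and replicate, with 1 point per gene and array. On the left all genes lie higher on the 3 day 32 arrays than on the 3 day 24 arrays, and on the right day 32 replicate 1 is the highest array for all 6 genes, with Cd79b at 8.69.

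The comparison of the receptor with the antibody genes asked whether they moved by the same amount in the same interval. It was tested on the difference of each gene and Pigr within an array. The comparisons share the day 24 arrays, and all use the same Pigr values. From day 11 to day 24 Igha rose by 2.67 ± 0.24 more than Pigr (SE, 95% interval 2.17 to 3.16, adjusted p = 2.06e-12), and Jchain by 2.09 ± 0.25 more. Of all 8629 genes set against Pigr, 0.649% moved above it and 98.5% below it in this interval. Igkv8-30 could not be told from Pigr, with a difference of 0.33 and a 95% interval from -0.23 to 0.89 (adjusted p = 0.24). The other 4 had log2 differences below that of Pigr, by -1.22 for Iglv1, -1.86 for Cd79b, -2.04 for Mzb1 and -2.51 for Igkv9-120. On day 11 the mean level of Pigr was 8.81, while Jchain (2.51), Iglv1 (2.94), Igkv9-120 (3.12) and Igkv8-30 (3.72) lay below the array medians and Mzb1 (4.31), Igha (4.44) and Cd79b (4.71) less than 1 unit above them. Igkv9-120 was also below them on average on day 24 (3.72). Background can make the log2 rise from such readings smaller than that of the RNA, so these values do not show that the RNA of any of the genes rose by less than, or by as much as, that of Pigr.

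From day 24 to day 32 the antibody genes and Jchain rose by more than Pigr in the probe sets used here. The excess over Pigr was 3.10 ± 0.23 for Iglv1, 3.01 ± 0.25 for Jchain, 2.75 ± 0.27 for Igkv8-30, 2.30 ± 0.24 for Igha and 1.02 ± 0.24 for Igkv9-120 (highest adjusted p of these, 0.00158). For Igkv9-120 it became 0.71 ± 0.24 without day 32 replicate 1 (adjusted p = 0.0273). In this interval 0.649% of all genes moved above Pigr and 57.1% below it. Mzb1 exceeded Pigr by 1.09 ± 0.30 (adjusted p = 0.00454), which became 0.49 without day 32 replicate 1 (0.103). Cd79b differed from Pigr by -0.47, with a 95% interval from -1.52 to 0.57 (adjusted p = 0.409), or by -1.79 without that array (7.24e-06). Within suckling, from day 4 to day 11, Igkv8-30 moved above Pigr by 0.93 ± 0.27 (adjusted p = 0.0227), a call that ended without any of 3 single arrays (day 4 replicate 2, day 4 replicate 3 or day 11 replicate 2) and within the higher hybridization group (0.69, 0.556). The share of all genes above Pigr there was 19.6%, and below it 0.116%.

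As a description of timing, the part of the change from day 11 to day 32 that was complete by day 24 was 85.5% for Pigr (84.0 to 86.9% when single arrays were left out). It was 67.1% for Igha (64.0 to 71.0%), 59.5% for Jchain (56.1 to 63.3%) and 51.2% for Igkv8-30 (48.2 to 53.1%), on the log2 scale. Mzb1 stood at 39.7% (33.3 to 52.0%), Iglv1 at 34.2% (31.4 to 37.9%) and Igkv9-120 at 27.9% (23.1 to 33.2%, and 13.3% with quantile normalization). These 6 genes started at or near background on day 11 and Pigr did not, which can make the first interval smaller for them alone, so the shares do not order them against Pigr. No share could be given for Cd79b, whose day 32 mean rests on 1 array. The ranges do not cover the choice of probe set. Further Igha probe sets moved by 6.11 and 4.49 across weaning and by 2.68 and 3.72 after it, against 5.77 and 2.83. For Igkv9-120 a further one moved by 2.21 and then 2.98, against 0.60 and 1.55. The shares thus do not order the antibody genes among themselves either.

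**Figure D3:**
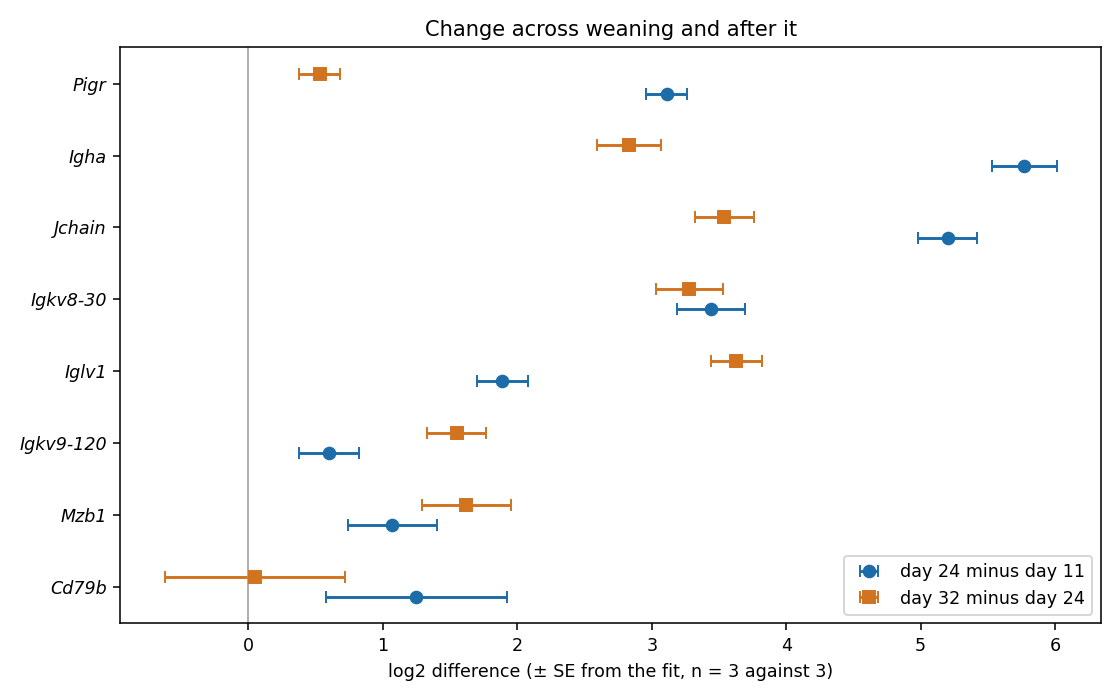
Log2 difference of each gene from day 11 to day 24 (circles) and from day 24 to day 32 (squares), with the standard error of the fit as bars and 3 arrays on each side. Pigr moves by 3.11 and then 0.53, Igha by 5.77 and then 2.83, and Iglv1 by 1.89 and then 3.63.

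All 8 genes had every day 24 array above every suckling array, and 7 of them, all but Cd79b, every day 32 array above every day 24 array. Among 34945 probe sets with 1 symbol these shares were 12.7% and 11.7%. Between the stages all 8 were higher after weaning, as were 31.1% of all genes tested, with 41.8% lower. Of the 8, 7, again without Cd79b, were called across weaning, where 26.9% of all genes were higher and 32.3% lower. The same 7 were called from day 24 to day 32, where the shares were 6.11% higher and 6.22% lower. The test over all ages called 7, against 68.3% of all genes. Within suckling 0 of the 8 were called from day 4 to day 11 (2.89% of all genes were, in limma), and Pigr alone had an unadjusted p under 0.05 (0.0103). Since 6 of the genes reached log2 6 only after weaning, they had to differ between the stages to pass the filter set for other genes, and these counts are a description only.

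Genes that act on Pigr transcription or relay the signals that raise it were described from a list of 25, of which 14 were tested. Across weaning 8 rose and 2 fell, with a median of 0.31 against -0.04 over all genes. Of all genes tested 26.9% rose and 32.3% fell there. Il17rc, a receptor subunit for interleukin 17, a cytokine that raises Pigr in epithelial cells, read 6.40, 6.28 and 6.27 on day 11 and 9.37, 8.91 and 9.36 on day 24. The groups were far apart, with a rise of 2.89 ± 0.15 (7.44-fold). Tlr3, the receptor for double-stranded RNA, rose 5.88-fold from readings of 3.33 to 3.73, and Relb, a subunit of NF-kappa-B, 4.75-fold. Myd88, the adaptor of Toll-like receptors, rose 1.62-fold. Both falls were in cytokine receptors, Ifngr2 for interferon gamma (-1.06 ± 0.23, or -0.74 with adjusted p = 0.118 within the higher hybridization group) and Il4ra for interleukin 4 (-0.31 ± 0.12), and the other interleukin 17 receptor subunit, Il17ra, had a difference of -0.09 ± 0.18. Usf2, a factor that binds the E-box, had 0.05 ± 0.13.

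From day 24 to day 32 limma called 0 of these 14 genes, 7 of which had an unadjusted p under 0.05. Over all genes tested 6.11% were called higher and 6.22% lower there. In that interval Il17rc differed by -0.15 ± 0.15, Relb by 0.01 ± 0.14 and Irf1, an interferon-induced factor that acts on Pigr, by 0.40 ± 0.16 (adjusted p = 0.102). Irf1 was 1.60-fold higher after weaning than in suckling when the ages of each stage were pooled.

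The transport list holds genes of antibody transfer and of vesicle traffic through the cell. Of 12 tested, 3 were higher and 5 lower after weaning, with a median of -0.12 against -0.07 over all genes. Over all genes tested 31.1% were higher and 41.8% lower, so these counts do not set the list apart. The largest change was in Fcgrt, the neonatal Fc receptor, which takes up IgG from milk in the suckling gut. Its level was 11.33 to 12.20 on the 12 suckling arrays, 8.09, 8.29 and 8.38 on day 24 and 7.84, 8.07 and 7.91 on day 32. Both late ages lay below every suckling array, and Fcgrt was 13.0-fold lower after weaning (log2 difference -3.70 ± 0.09, adjusted p = 6.94e-17). B2m, the light chain that pairs with Fcgrt and with MHC class I, rose 1.55-fold. Of the traffic genes, Rab11a, a GTPase of recycling endosomes, was 2.00-fold lower and the clathrin adaptor subunit Ap1m2 1.99-fold lower, while Rab25 (0.14 ± 0.10) and Rab5a (-0.08 ± 0.08) did not pass.

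**Figure D4:**
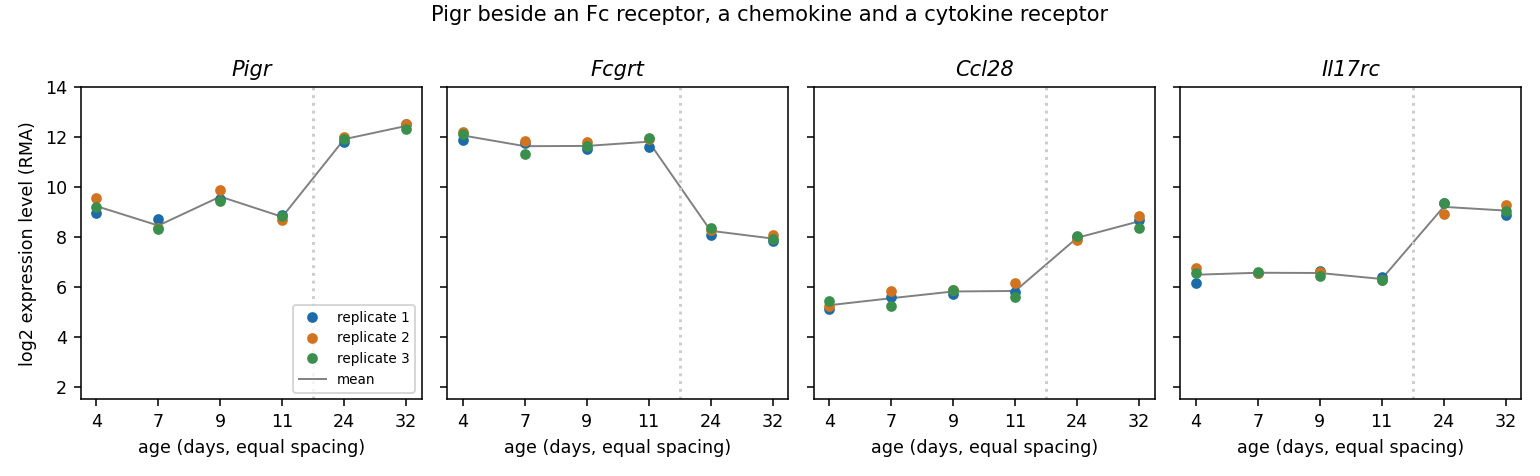
Log2 expression level of Pigr, the Fc receptor Fcgrt, the chemokine Ccl28 and the receptor subunit Il17rc on each array against age in days (ages equally spaced), with 3 mice per age as points, their mean as a line and weaning as a dotted line. Fcgrt goes from 11.33 to 12.20 in suckling to 7.84 to 8.38 after weaning, and the 3 other genes are higher after weaning on every array.

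Chemokines made by the epithelium, which draw IgA plasma cells into the gut wall, rose together with the receptor. Ccl28, the ligand of Ccr10 on IgA plasma cells, read 5.80, 6.14 and 5.59 on day 11, 7.99, 7.87 and 8.04 on day 24 and 8.70, 8.84 and 8.35 on day 32. The ages were apart, with rises of 2.13 ± 0.16 across weaning (adjusted p = 4.18e-09) and 0.66 ± 0.16 after it (0.014; 0.55 and 0.0758 without day 32 replicate 2). Ccl25, the ligand of Ccr9, rose 2.63-fold across weaning and differed by -0.07 ± 0.11 after it. Madcam1, the vessel ligand that gut-homing lymphocytes bind, was 1.64-fold lower after weaning, and the integrin subunit Itga4 did not pass (-0.33 ± 0.18). In all, 2 of the 4 tested homing genes were higher and 1 lower between the stages (2 and 2 without day 32 replicate 1). Over all genes tested 31.1% were higher and 41.8% lower.

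Of the 20 genes listed for plasma cell differentiation and survival, 10 were tested. After weaning 6 were higher and 1 lower (median 0.44), against 31.1% and 41.8% of all genes tested. Fkbp11, a secretory folding enzyme, rose 2.47-fold, the plasma cell surface proteoglycan Sdc1 2.24-fold and Edem1, of protein quality control, 2.23-fold. Epithelial cells also make these proteins. Xbp1, the driver of the secretory programme, rose 1.24-fold. The 1 fall was Prdm1, a repressor needed by plasma cells that is also abundant in the suckling epithelium. It read 9.23, 9.04 and 8.77 on day 11, 4.93, 5.02 and 4.88 on day 24 and 6.22, 5.98 and 6.19 on day 32. After a fall of 4.07 ± 0.12 across weaning it thus rose by 1.19 ± 0.12 from day 24 to day 32 (adjusted p = 2.53e-06), the interval in which Igha and Jchain also rose, and it was the 1 gene of the list called there (2 were without day 32 replicate 1). Tnfrsf17, the survival receptor BCMA of plasma cells, stayed below the level required for testing. It read 2.72 to 3.21 in suckling, 3.22, 3.41 and 3.55 on day 24 and 4.25, 3.93 and 4.24 on day 32. Other untested genes of the list differed in course. On day 32 Irf4 read 5.92, 4.10 and 4.63, above all its suckling readings. Tnfrsf13c read 7.34, 3.56 and 3.48, Tnfrsf13b 6.14, 3.74 and 4.07, and Il5ra 2.98, 2.66 and 2.48.

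Of genes that direct B cells to IgA, 5 of 20 listed were tested, and 4 were lower and 0 higher after weaning in limma. Over all genes tested 41.8% were lower and 31.1% higher. Aldh1a2, which makes retinoic acid, was 2.02-fold lower, the cytokine Tgfb1 1.73-fold, and its receptors Tgfbr1 1.49-fold and Tgfbr2 1.39-fold lower. The same 4 were lower across weaning, but within the higher hybridization group Tgfb1 (-0.79, adjusted p = 0.084), Tgfbr1 (-0.51, 0.109) and Tgfbr2 (-0.41, 0.177) did not pass there. All are also made by other cells of the gut wall. Of the listed genes that missed the filter, Nos2 and Tnfsf13b read higher on every array after weaning than on every suckling array. Nos2 read 5.47, 5.44 and 4.88 on day 24 and 5.74, 6.15 and 6.41 on day 32. Tnfsf13b read 5.24, 4.51 and 4.97, then 5.61, 5.04 and 5.17. The falls among tested genes thus do not describe the whole list. Of the B cell list 4 genes were tested, of which Ighm, Cd53 and Cd74 were higher after weaning and Blnk had 0.03 ± 0.13. Of all genes tested 31.1% were higher. On day 32 Ighm read 9.61, 6.39 and 6.47, and Cd53 8.95, 6.05 and 6.28. Without day 32 replicate 1 the 4 tested genes still held 3 rises between the stages, with a median of 0.69 against 1.01 with it. They do not stand for the whole list. Of untested genes, Ms4a1 (3.08 and 3.26), Fcmr (3.66 and 3.52) and Bank1 (4.17 and 3.94) were within or below their suckling range on day 32 replicates 2 and 3. Cd72 (4.69 and 4.69) was above its range there. The highest suckling reading of Ighm was 6.42. From day 24 to day 32 Cd74, the invariant chain of MHC class II, rose by 1.19 ± 0.24. It read 9.18, 9.50 and 9.55 on day 24 and 11.30, 9.97 and 10.53 on day 32. Without day 32 replicate 1 the list held 1 rise and 1 fall there.

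The genes whose 6 age means came closest to those of Pigr, after each was centred on its own average, were B3gnt3, Gpx2, Zbp1, Gpr160 and Bhmt, with root mean square differences of 0.28, 0.30, 0.32, 0.32 and 0.33 log2 units. Of these 5, 4 were the same with quantile normalization. B3gnt3, a glycosyltransferase, had means of 4.51 on day 11, 7.38 on day 24 and 7.92 on day 32, with 4.82 on day 9. Gpx2, the glutathione peroxidase of the gut epithelium, had means of 7.66, 11.21 and 11.39 on days 11, 24 and 32. The day 24 mice spread widely in Gpx2 (SD 1.14, n = 3) and Bhmt (SD 1.39). Nearest to Igha were Saa1 (0.33), Slc13a1 (0.40), Ada (0.79), Upp1 (0.82) and Cyp4f14 (0.83), and these 5 were the same with quantile normalization. The day 24 mean of the serum amyloid Saa1 has a wide spread (8.96 ± 3.71, SD, n = 3), whereas the sulfate transporter Slc13a1 held 9.56 ± 0.40 on day 24 and 11.19 ± 0.17 on day 32. The other 3 were less like Igha in that interval, with day 24 and day 32 means of 9.87 and 10.87 for Ada and 10.24 and 10.93 for Upp1. Cyp4f14 was flat there (11.14 and 11.12).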

How the data were processed

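The authors deposited log2 expression levels for 45101 probe sets, which the submitters' processing notes credit to RMA without version or options; the sources used here give no scan batches. Symbols came from the platform annotation, in which 34945 probe sets had 1 symbol, 932 several and 9224 none. Several-symbol probe sets were left out. The 8 genes and all lists were chosen with earlier results of these data known. Other genes needed log2 6 or more on at least 3 arrays; 7 of the 8 passed, 6 of these through arrays after weaning, and Igkv9-120 was fitted although it did not. limma 3.58.1 (R 4.3.3; lmFit, eBayes) was run on 8630 genes, with age as 6 levels and 12 residual degrees of freedom. Adjusted p is Benjamini-Hochberg over all genes tested, called under 0.05. Within-array differences from Pigr were fitted alike. The fit was tested on simulated data. Errors of differences are standard errors. Listed genes are named if called, up to 4 per comparison by size, or where their role needs it; those nearest Pigr and Igha come from centred age means. Alternatives changed the filter, probe set choice, normalization, variance model, array weights, hybridization group, Xist as covariate, ages fitted and single arrays; the lower hybridization group alone was chosen after seeing the data. Arrays of 1 age correlated at r of at least 0.983, and 0 pairs were identical. Promoters and loci are from RefSeq on GRCm38.p6. The number of arrays limits the precision.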

Additional observations from a re-analysis of the deposited data

How the results depend on the processing

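No paired analysis was possible because no ages share more than 1 number in the sample titles (1 number is on an array of day 7 and on an array of day 9). Counts of genes called were 6292 between the stages, 5109 from day 11 to 24, 1064 from day 24 to 32, 249 from day 4 to 11, 7, 4 and 4 in the suckling steps (days 4 to 7, 7 to 9 and 9 to 11), and 5897 over all ages. Without a filter they were 10247 between the stages and 2 from day 9 to 11. A filter at log2 8, which leaves fewer genes, gave 2865 between the stages, 2399 from day 11 to 24, 577 from day 24 to 32, 121 from day 4 to 11, 2 from day 4 to 7 and 2729 over all ages; 5 of the 8 genes were then called between the stages, 3 differed from Pigr across weaning and 1 (Pigr) was called from day 9 to 11. From day 4 to 7 the count was 1 with the mean of probe sets and 4 with cyclic loess, and quantile normalization and the trend and robust option each called 1 of the 8, as the latter did from day 9 to 11. Array weights gave 947 genes from day 4 to 11 and 112, 207 and 354 in the suckling steps, with 1 of the 8 called from day 4 to 11, from day 4 to 7 and from day 9 to 11 and 6 differing from Pigr from day 4 to 11; the cause was not tested. With hybridization group as a block the counts were 484 from day 4 to 11, 3 from day 4 to 7 and 2 from day 9 to 11. The higher group alone gave 350 from day 24 to 32, 18 from day 4 to 11, 1 from day 4 to 7, and 0 of the 8 differing from Pigr within suckling; the lower group alone gave 10 from day 4 to 11, 0 from day 4 to 7 and 0 of the 8 from day 7 to 9. With Xist as a covariate 4 genes were called from day 4 to 7 and 2 from day 9 to 11. Only the ages compared gave 443 from day 24 to 32, 52 from day 4 to 11, 0 from day 4 to 7, 0 from day 9 to 11, and 0 of the 8 differing from Pigr within suckling.

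Leaving out single arrays gave 6059 to 6344 genes between the stages, 4659 to 5199 from day 11 to 24, 571 to 1193 from day 24 to 32, 85 to 330 from day 4 to 11, 0 to 9, 4 to 5 and 0 to 5 in the suckling steps, and 5488 to 6065 over all ages. Of the 8 genes it called 8 between the stages, 5 to 8 from day 11 to 24, 6 to 7 from day 24 to 32, 0 to 1 from day 4 to 11, 0 to 1, 1 and 0 to 1 in the suckling steps and 7 to 8 over all ages. It left 6 differing from Pigr across weaning, 6 after it and 0 to 4 within suckling. The count from day 24 to 32 was 643 without day 24 replicate 3, 686 without day 32 replicate 1 and 571 without day 32 replicate 2. Cd79b from day 24 to 32 ran from -1.29 (without day 32 replicate 1) to 0.77 (without day 32 replicate 2). Probe set choice aside, the rises of Igha, Jchain, Iglv1 and Igkv8-30 over both late intervals kept direction and call under every alternative tested. For Iglv1, a probe set not chosen differed by -0.02 ± 0.41 across weaning (limma, adjusted p = 0.973). After weaning it differed by 0.96 ± 0.41 (adjusted p = 0.14), so it passed in neither interval. The further Igha probe sets and another of Iglv1 rose and passed in both.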

Other observations

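Besides the probe set chosen for each of the 8 genes, 41 others carried a single immunoglobulin symbol. They include the further Igha, Iglv1 and Igkv9-120 probe sets and the Ighm probe set tested above, and here their levels were read off without a test. On day 24 13 of them had every array above all 12 suckling arrays, as had 12.7% of all probe sets with 1 symbol. On day 32 20 had, against 13.6% of all. The kappa light chain held most of the late ones, with 6 of 19 probe sets above on day 24 and 14 of 19 on day 32. Igkv6-14, a kappa variable segment, read 3.74, 2.98 and 3.25 on day 24 and 9.22, 5.84 and 9.31 on day 32, so that mice of 1 age differed by over 3 log2 units. The 4 probe sets of Ighg3, a constant region of IgG, were above on neither day and read 2.20 to 4.30 on average on day 32.

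Ighm, the constant region of IgM, had 11 probe sets that differed in course. The one tested with the B cell list read 7.45, 7.85 and 7.72 on day 24 and 9.61, 6.39 and 6.47 on day 32, the same order of arrays as Cd79b. Another read 3.56, 3.86 and 3.91 on day 24 and 6.93, 6.25 and 6.58 on day 32, above all suckling arrays on each. In 6 of the 41 probe sets only day 32 replicate 1 of that day lay above the suckling range; among them the heavy chain segment Ighv14-2 read 7.79 there against 2.81 and 3.21, and a further Iglv1 probe set 4.96 against 2.42 and 2.48.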
